A study of Arabidopsis thaliana with 9 samples.

Results

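The genes described here encode the content, the builders and the binding partners of endoplasmic reticulum (ER) bodies in Arabidopsis thaliana. They were chosen as a list of 10 loci: the beta-glucosidase genes PYK10 (BGLU23, AT3G09260), BGLU21 (AT1G66270), BGLU22 (AT1G66280) and BGLU18 (AT1G52400), the ER body factor genes NAI1 (AT2G22770), NAI2 (AT3G15950) and MEB1 (AT4G27860), and the jacalin-related lectin genes PBP1 (AT3G16420), JAL33 (AT3G16450) and JAL34 (AT3G16460). Of these 10 loci, 5 had an entry in the table of 22155 loci, and 3 of them, PYK10, BGLU22 and NAI1, had enough counts to be tested. Polyadenylated RNA was sequenced from 3 groups with 3 biological replicates each, all given the treatment name Control: wild-type Col-0, the line PP2-A5oe, which overexpresses PP2-A5, and the mutant line pp2-a5. The lines are also called the overexpressor and the mutant below. PP2-A5 encodes a protein with a TIR domain and a lectin domain, and its own transcript was not analysed here. The labels give rosettes as tissue, while the extraction protocol names seedlings of 3 weeks, and neither the promoter of the overexpressing line nor a further line is given in the sources used here. With 1 line of each kind, effects of PP2-A5 and of anything else in which the lines differ cannot be told apart.

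ER bodies are rod-shaped compartments of the ER found in Brassicales. They are constitutive in seedlings and roots and are induced by wounding or jasmonate in rosette leaves. They store beta-glucosidases, which reach glucosides such as indole glucosinolates and scopolin when cells are broken, as happens under herbivores. NAI1 is a bHLH transcription factor needed for ER body formation and for PYK10 expression, NAI2 is needed for the bodies to form, MEB1 is a protein of their membrane, and jacalin-related lectins such as PBP1 bind PYK10 in large complexes after tissue damage.

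The stretches of 250 bases in front of the 3 tested genes are shown because these genes were all higher in PP2-A5oe than in pp2-a5, and because NAI1 belongs to a family of factors that bind E-boxes. The sequences are from RefSeq, build TAIR10.1, and read 5′ to 3′ on the strand of the gene, ending at the base before the annotated gene start. Capitals mark each CANNTG, the E-box, which is the same on both strands and of which the G-box CACGTG is one form.
PYK10, chr3:2843782-2844031, minus strand: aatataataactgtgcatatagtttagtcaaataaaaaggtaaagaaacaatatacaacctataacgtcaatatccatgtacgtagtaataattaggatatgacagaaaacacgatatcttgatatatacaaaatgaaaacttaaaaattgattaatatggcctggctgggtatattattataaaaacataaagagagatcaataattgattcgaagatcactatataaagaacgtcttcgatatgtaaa
BGLU22, chr1:24709997-24710246, minus strand: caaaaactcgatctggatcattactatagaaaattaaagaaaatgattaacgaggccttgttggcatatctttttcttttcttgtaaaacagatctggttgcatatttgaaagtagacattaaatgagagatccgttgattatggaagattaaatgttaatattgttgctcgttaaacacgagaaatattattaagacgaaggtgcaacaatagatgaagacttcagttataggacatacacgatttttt
NAI1, chr2:9684312-9684561, plus strand: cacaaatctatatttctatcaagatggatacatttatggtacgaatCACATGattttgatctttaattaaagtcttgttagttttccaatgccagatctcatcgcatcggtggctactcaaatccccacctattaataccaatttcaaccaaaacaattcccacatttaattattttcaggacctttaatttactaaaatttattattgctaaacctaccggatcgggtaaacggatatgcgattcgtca
No CANNTG was found in the windows of PYK10 and BGLU22, and 1 was found in that of NAI1, CACATG, which starts 204 bases before the gene start (position -204). Of 27443 promoters of the same length, 55.3% held CANNTG and 6.49% held CACGTG. Among the 10 loci only the window of NAI2 held CACGTG, once, at position -86. A missing match says only that these letters are not in this window.

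BGLU22 and BGLU21 are tandem neighbours on chromosome 1, at 24706512 to 24709996 and 24699868 to 24703166, both on the minus strand. Their longest identical coding run within 1 exon, of 80 bases, is shown because reads that lie wholly in it cannot be assigned to either gene. In BGLU22 it lies at chr1:24708251-24708330 and in BGLU21 at chr1:24701621-24701700.
BGLU22 and BGLU21: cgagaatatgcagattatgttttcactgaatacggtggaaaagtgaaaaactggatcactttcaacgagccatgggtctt
Of the 50-base words in the BGLU22 transcript, 4.92% also occurred in BGLU21, and no other transcript held any. PYK10 shared no such word with a transcript on the same strand, but 3.81% of its words lay in AT3G09250, which overlaps it on the opposite strand. NAI1 shared none. Whether counting used strand is not given in the sources used here, so reads of AT3G09250 cannot be separated from those of PYK10 in the overlap.

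The members fell apart by the number of their annotated transcripts. The 3 tested genes, PYK10, BGLU22 and NAI1, have 1 annotated transcript each, and all of the other 7 have 2 or more. BGLU18, the main inducible beta-glucosidase of rosette ER bodies, has 3 annotated transcripts and was listed with 1 count, in Col-0 replicate 3, and 0 counts in the other 8 libraries. At 0 counts, the 3 libraries of PP2-A5oe allow a level of up to 0.170 CPM and those of pp2-a5 up to 0.164 CPM (3 counts over the group, counting error only). JAL34, a lectin gene with 2 annotated transcripts, had 1 count over the 3 Col-0 libraries, 2 over PP2-A5oe and 2 over pp2-a5. BGLU21, NAI2, MEB1, PBP1 and JAL33, with 2, 5, 4, 3 and 3 annotated transcripts, had no entry among the rows used and were not analysed here.

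The same pattern ran through the whole table. Of 16746 nuclear protein-coding loci with 1 annotated transcript, 55.2% were tested, and those with an entry had a median of 580 counts over the 9 libraries. For 10698 loci with 2 or more transcripts the values were 40.5% and 133 counts, and for 1208 loci with 5 or more they were 24.2% and 37 counts. Rubisco activase (RCA) and the carbonic anhydrase gene CA1, abundant leaf transcripts with 3 and 4 annotated transcripts, were on the list of leaf markers and had no entry either. Single loci departed from this pattern: ESM1 with 2 annotated transcripts had 83002 counts and BGLU8 with 8 had 3475, while BGLU19 with 1 had 6. Whether the low values of BGLU18 and JAL34 reflect the counting or low transcription was not tested.

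**Figure D1:**
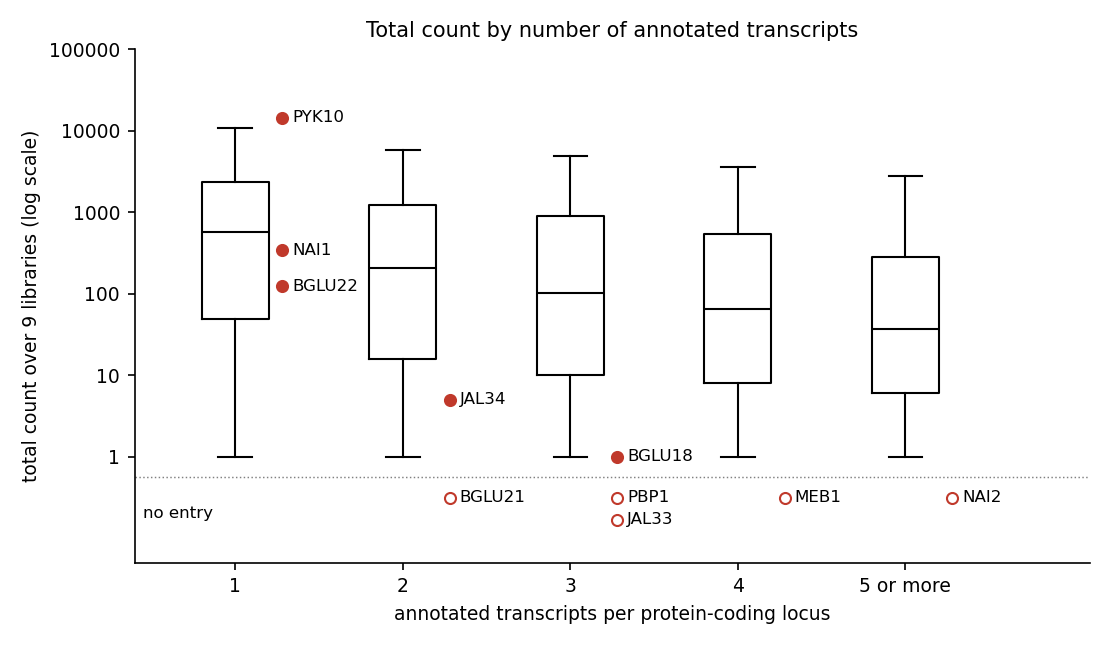
Total count over 9 libraries (log scale) against the number of annotated transcripts, for nuclear protein-coding loci with an entry. Boxes span the quartiles with the median as a line, whiskers run from the 5th to the 95th percentile, filled red points are members with an entry and open points members without one; the 3 tested members stand in the class with 1 transcript.

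In PP2-A5oe, the beta-glucosidase genes PYK10 and BGLU22 were higher than in Col-0. PYK10, the most abundant member, was 1.31-fold higher, and BGLU22, at far fewer counts, was 3.54-fold higher. The level of NAI1, the regulator of both ER bodies and PYK10, did not pass the test between these groups. In pp2-a5 no member passed against Col-0, and in the direct comparison of the lines PYK10, BGLU22 and NAI1 were all higher in PP2-A5oe than in pp2-a5. Both comparisons with Col-0 share the same 3 Col-0 libraries.

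PYK10 lies on chromosome 3 from 2840477 to 2843781 and encodes the principal beta-glucosidase of constitutive ER bodies. Its TMM-scaled level was 234, 221 and 280 CPM (counts scaled to a common library size) in replicates 1 to 3 of Col-0. The overexpressor had 326, 321 and 312 CPM and the mutant 257, 238 and 236 CPM. All 3 PP2-A5oe libraries lay above all others, while Col-0 and pp2-a5 overlapped, with Col-0 replicate 3 above every pp2-a5 library. Col-0 averaged 245 ± 30.6 CPM (SD, n = 3), the overexpressor 319.7 ± 7.09 CPM and the mutant 243 ± 11.5 CPM. PYK10 thus had a log2 fold change of 0.39 ± 0.07 (standard error) in PP2-A5oe against Col-0 (adjusted p = 8.11e-05, edgeR) and of 0.39 ± 0.07 in PP2-A5oe against pp2-a5 (adjusted p = 0.000104). In pp2-a5 against Col-0 it was -0.01 ± 0.07 (adjusted p = 0.954). Col-0 replicate 3 also differed from the other Col-0 libraries across the table, with a chi-square per degree of freedom of 5.25 and 6.41 against them, where all other pairs within a group had 1.54 to 3.22. Without it, PYK10 stood at 0.48 in PP2-A5oe, with an adjusted p of 1.13e-08, where all alternatives gave 1.13e-08 to 0.00226. In pp2-a5 it then stood at 0.095, with an adjusted p of 0.307, where all alternatives gave 0.307 to 0.993.

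BGLU22, a close relative of PYK10 known from roots, had 7, 5 and 8 counts in replicates 1 to 3 of Col-0. The overexpressor had 23, 26 and 22 counts, and the mutant 12, 10 and 10. The 3 groups did not overlap in scaled level: PP2-A5oe was highest, pp2-a5 lay between, and Col-0 was lowest. Scaled, Col-0 averaged 1.15 ± 0.329 CPM, the overexpressor 4.10 ± 0.507 CPM and the mutant 1.72 ± 0.200 CPM (SD, n = 3 each). The summed counts of 20, 71 and 32 have exact 95% Poisson intervals of 12.2 to 30.9, 55.5 to 89.6 and 21.9 to 45.2. For BGLU22 the log2 fold change was 1.82 ± 0.33 in PP2-A5oe against Col-0 (adjusted p = 4.84e-05) and 1.24 ± 0.29 in PP2-A5oe against pp2-a5 (adjusted p = 0.00267). In pp2-a5 against Col-0 it was 0.58 ± 0.39 and was not called (adjusted p = 0.33), so the order of these neighbouring levels did not hold beyond the spread. BGLU22 passed the filter on low counts through PP2-A5oe, where 3 of 3 libraries reached its 1.65 CPM, against 0 in Col-0 and 2 in pp2-a5. Its calls in PP2-A5oe are therefore a description only.

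NAI1 lies on chromosome 2 from 9684562 to 9686613. Its level was 6.93, 5.86 and 7.66 CPM in replicates 1 to 3 of Col-0. The overexpressor had 9.61, 7.57 and 6.05 CPM, and the mutant 5.19, 4.63 and 4.22 CPM. The pp2-a5 libraries were below all others, and those of Col-0 and PP2-A5oe overlapped. Col-0 averaged 6.82 ± 0.904 CPM, the overexpressor 7.74 ± 1.79 CPM and the mutant 4.68 ± 0.487 CPM (SD, n = 3 each). NAI1 was higher in PP2-A5oe than in pp2-a5, with a log2 fold change of 0.73 ± 0.21 (adjusted p = 0.0156). This call was lost without PP2-A5oe replicate 1 (0.54, adjusted p = 0.179), without pp2-a5 replicate 2 (0.72, adjusted p = 0.0525), without pp2-a5 replicate 3 (0.66, adjusted p = 0.0812) and with DESeq2 (0.73, adjusted p = 0.0735), and the adjusted p ran from 0.00544 to 0.179 over all alternatives. Against Col-0, NAI1 stood at -0.54 ± 0.22 in pp2-a5 (adjusted p = 0.0757) and at 0.19 ± 0.20 in PP2-A5oe (adjusted p = 0.524).

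**Figure D2:**
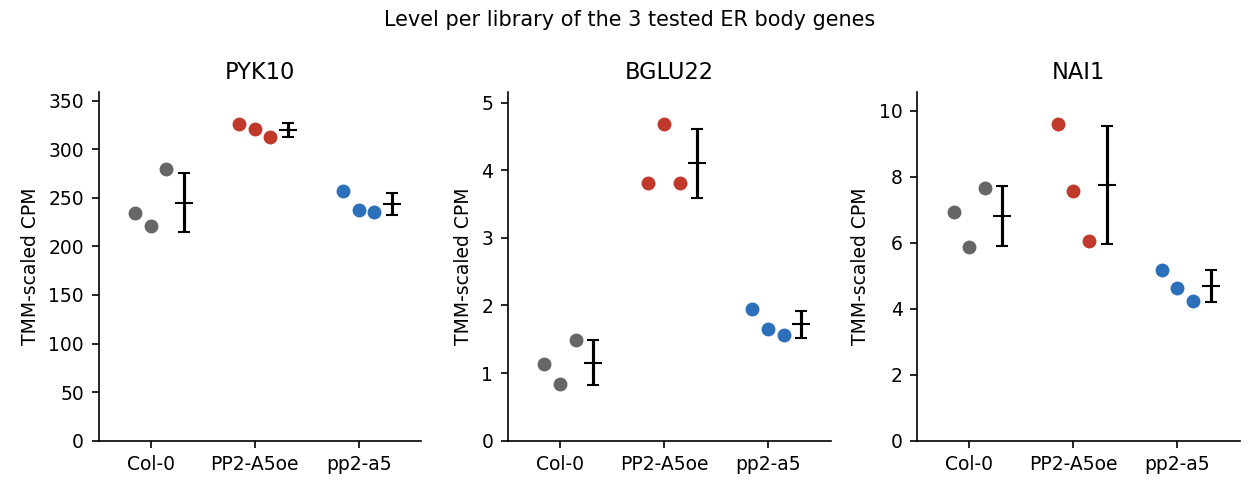
TMM-scaled CPM of PYK10, BGLU22 and NAI1 in each of the 9 libraries (points, replicates 1 to 3 from left to right) with the group mean and SD beside them (black). PYK10 is highest in the 3 PP2-A5oe libraries (312 to 326 CPM), and NAI1 is lowest in the 3 pp2-a5 libraries (4.22 to 5.19 CPM).

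Read against the table as a whole, 2 of the 3 tested members were called higher in PP2-A5oe against Col-0 and 0 lower, where 14.5% of 13975 tested loci were called higher, 10.5% lower and 25.0% either way. In pp2-a5 against Col-0, 0 of 3 were called by edgeR, DESeq2 or limma-voom, where 12.3% of loci were higher, 8.47% lower and 20.8% either way with edgeR. At an unadjusted p under 0.05, edgeR and limma-voom had 1 member each, NAI1 with edgeR, and DESeq2 had 0. With edgeR, 4411 of the 13975 tested loci were under that unadjusted p. Between the lines, 3 of 3 were higher in PP2-A5oe, where 7.21% of loci were higher, 5.45% lower and 12.7% either way. With only 3 members tested, and BGLU22 tested because it was high in PP2-A5oe, these counts are a description.

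Per kilobase of transcript the members differed widely in level. In Col-0, PYK10 stood at 136 ± 17.0 RPKM, NAI1 at 4.395 ± 0.583 RPKM and BGLU22 at 0.554 ± 0.158 RPKM, and the same order held in PP2-A5oe (177, 4.99 and 1.97 RPKM) and in pp2-a5 (135, 3.02 and 0.827 RPKM). PYK10 also stood above the other tested family members with 1 annotated transcript in Col-0, which were BGLU44 (91.2 RPKM), BGLU40 (71.8 RPKM), BGLU5 (49.0 RPKM) and BGLU25 (4.82 RPKM). PYK10 took 0.0219% to 0.0318% of all counts of a library. The ratio of the PYK10 to the BGLU22 count ran from 187 to 264 in Col-0, from 68.4 to 85.6 in PP2-A5oe and from 132 to 151 in pp2-a5. It rests on BGLU22 counts of 5 to 26 per library and leaves out their counting error. BGLU22 was tested because it was high in PP2-A5oe, so these ratios restate its level and are a description only.

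PYK10 and BGLU22 are known as root-abundant genes, and root markers were measured beside them. Of a list of 19 root markers, 18 had an entry and 7 were tested, of which 4 were higher and 0 lower in PP2-A5oe against Col-0, with a median log2 fold change of 0.86 (-0.02 over all tested loci). Over all tested loci, 14.5% were higher and 10.5% lower. LRX1, a wall protein gene of root hairs, stood at 2.80 ± 0.254 CPM in Col-0 and 8.33 ± 1.60 CPM in the overexpressor, with a log2 fold change of 1.57 ± 0.23 and an adjusted p of 2.68e-06. CASP1, a gene of the Casparian strip, overlaps a gene on the opposite strand and stood at 0.563 ± 0.164 and 3.12 ± 0.574 CPM. It reached the 1.65 CPM of the filter in 3 of 3 PP2-A5oe libraries and in 0 of the others, so it was tested only because it was high there, and its call and its place among the 4 support nothing. FRO2, a ferric reductase gene with 2 annotated transcripts, and SCR, which is also expressed in leaves, were the other called markers. Between the lines 3 of 7 were higher in PP2-A5oe and 0 lower, where 7.21% of all tested loci were higher and 5.45% lower. In pp2-a5 against Col-0 no root marker was called by edgeR, where 12.3% of all tested loci were called higher and 8.47% lower. At an unadjusted p under 0.05 there was 1 root marker, and 4411 of all 13975 tested loci. With no filter, 18 root markers were tested, of which 9 were higher and 0 lower in PP2-A5oe and 2 were higher and 0 lower in pp2-a5 against Col-0. Over all 22155 loci, 2011 were then higher and 1648 lower in PP2-A5oe, and 1697 higher and 1325 lower in pp2-a5. SCR in pp2-a5, at 0.22 ± 0.08 (adjusted p = 0.0541), was called with no filter, without Col-0 replicate 2 and without PP2-A5oe replicate 3.

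The summed level of the 17 listed root markers other than SCR was 17.1 to 24.3 CPM over the Col-0 libraries, 35.9 to 41.8 CPM in the overexpressor and 21.6 to 25.5 CPM in the mutant. With SCR it was 161 to 198 CPM, 263 to 309 CPM and 212 to 218 CPM. Not every listed root marker was higher in the overexpressor. ESB1 summed to 16 counts over the Col-0 libraries, against 8 for the overexpressor and 6 for the mutant. CASP4 summed to 3 counts for Col-0 and 3 for the overexpressor. COBL9 and EXPA7 had 0 counts in PP2-A5oe replicate 3, although their sums for the overexpressor, 15 and 13, were above the 2 and 1 of Col-0. CASP5 had 0 counts in all libraries of Col-0 and PP2-A5oe, and 4 counts over the 9 libraries. None of these genes passed the filter on low counts. The part of root tissue in the higher PYK10 and BGLU22 levels was not tested. In bulk samples, more cells of a type and more RNA per cell cannot be told apart. Leaf markers were abundant in every library, with a summed level of 41080 to 54551 CPM over the 8 listed of 12. CAB1, a light-harvesting gene, fell from a Col-0 mean of 21769 CPM to 17606 CPM in the overexpressor and 16617 CPM in the mutant. Of the 8 leaf markers tested, 0 were higher and 4 lower in PP2-A5oe, and 0 were higher and 7 lower in pp2-a5, against Col-0. Over all tested loci, 14.5% were higher and 10.5% lower in PP2-A5oe, and 12.3% higher and 8.47% lower in pp2-a5. Between the lines 3 leaf markers were higher in PP2-A5oe and 0 lower, where 7.21% of all tested loci were higher and 5.45% lower. Of these 3 calls, those of RBCS2B and RBCS1B were lost in 9 and 4 of 19 alternatives.

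**Figure D3:**
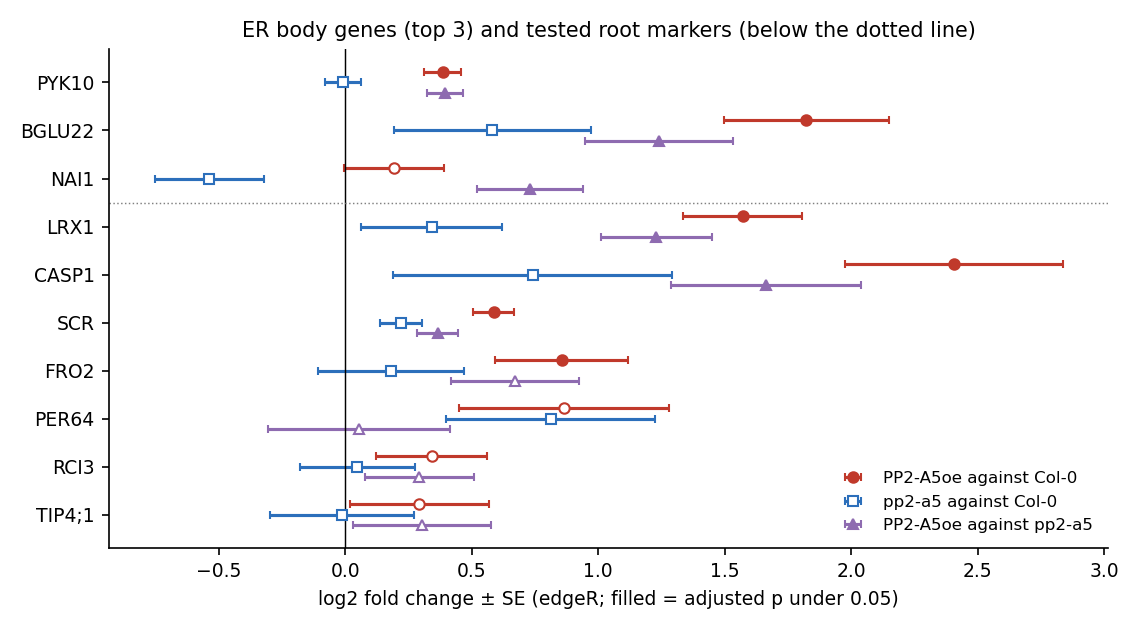
Log2 fold change with its standard error (edgeR) for PYK10, BGLU22 and NAI1 and, below the dotted line, for the 7 tested root markers, in the 3 comparisons. Filled symbols passed an adjusted p of 0.05; PYK10, BGLU22, LRX1, CASP1 and SCR are filled for PP2-A5oe against both Col-0 and pp2-a5.

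Among the other beta-glucosidase genes, as over all tested loci, more were called higher than lower in PP2-A5oe. Of 40 loci with a BGLU symbol, 13 were tested, and of the 12 that are not members 6 were higher and 1 lower than in Col-0, with a median log2 fold change of 0.36, where 14.5% of all tested loci were higher and 10.5% lower. With upper-quartile scaling the family counts were again 6 and 1, while over all loci 1769 were higher and 2069 lower. In pp2-a5 3 were higher and 2 lower, with a median of -0.01, where 12.3% of all tested loci were higher and 8.47% lower. Between the lines 5 were higher and 1 lower in PP2-A5oe, where 7.21% of all tested loci were higher and 5.45% lower. BGLU9, with 3 annotated transcripts and an overlapping gene, had 30.2 ± 3.73 CPM in Col-0, against 64.5 ± 2.88 CPM in the overexpressor and 45.5 ± 3.00 CPM in the mutant. It was called in both, at 1.09 ± 0.09 (adjusted p = 2.16e-11) and 0.58 ± 0.10 (adjusted p = 1.76e-05) on the log2 scale. BGLU28, which is linked to glucosinolate breakdown under sulphur deficiency and has 2 annotated transcripts, had 126.5 ± 3.37 CPM in Col-0, 207 ± 5.51 CPM in the overexpressor and 149 ± 7.63 CPM in the mutant, and was also called in both, in the mutant not without pp2-a5 replicate 1 (adjusted p from 0.0047 to 0.0617 over 19 alternatives). BGLU40, with 1 annotated transcript, went in opposite directions. From 149 ± 4.12 CPM in Col-0 it rose to 184 ± 2.24 CPM in the overexpressor (log2 fold change 0.30 ± 0.06, adjusted p = 0.000341) and fell to 122 ± 2.70 CPM in the mutant (-0.30 ± 0.06, adjusted p = 0.000617). BGLU8, with 8 annotated transcripts, was lower in both lines, at -0.45 ± 0.08 in PP2-A5oe and -0.30 ± 0.08 in pp2-a5.

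**Figure D4:**
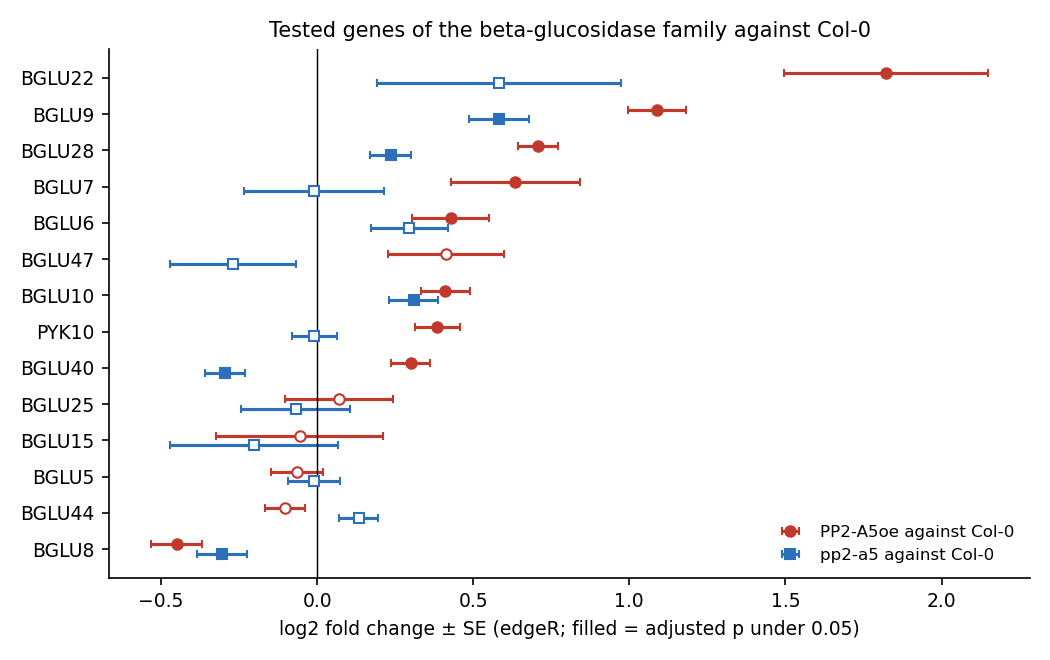
Log2 fold change against Col-0 with its standard error (edgeR) for PYK10 and the 13 tested loci with a BGLU symbol, in PP2-A5oe (red circles) and pp2-a5 (blue squares). Filled symbols passed an adjusted p of 0.05; BGLU22 has the largest fold change in PP2-A5oe (1.82) and BGLU40 is filled on both sides of 0.

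The nearest relatives of the ER body factors gave few counts. TSA1, a homologue of NAI2 and neighbour of BGLU18, was not analysed here, and MEB2, the partner of MEB1, had 2 counts over the 9 libraries. JAL35, a jasmonate-responsive lectin gene also named JR1, had 2 counts as well. Each of these genes has 2 or more annotated transcripts. BGLU25, the 1 tested locus among 6 ER body relatives, stood at 0.07 ± 0.17 in PP2-A5oe and -0.07 ± 0.17 in pp2-a5 and was not called.

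Genes of proteins found with PYK10 in complexes, or related to them, were called in both directions. Of 11 such loci, 6 were tested, with 1 higher and 2 lower in PP2-A5oe and 2 higher and 2 lower in pp2-a5 against Col-0 (1 and 2 with upper-quartile scaling). Over all tested loci, 14.5% were higher and 10.5% lower in the overexpressor, while the mutant had 12.3% higher and 8.47% lower. GLL22, a GDSL lipase-like protein gene, had 7.89 ± 1.22 CPM in Col-0 and rose to 12.01 ± 0.983 CPM in the overexpressor (log2 fold change 0.61 ± 0.17) and 14.4 ± 1.62 CPM in the mutant (0.86 ± 0.16). ESM1, which favours isothiocyanates among glucosinolate products, fell in both lines, by 0.79 on the log2 scale in PP2-A5oe and by 0.73 in pp2-a5, and has 2 annotated transcripts. The myrosinase-binding protein gene MBP1 fell as well, at -0.68 ± 0.14 and -0.41 ± 0.14. Its call in pp2-a5 was lost with DESeq2, without Col-0 replicate 1 and without pp2-a5 replicate 2 (adjusted p from 0.0155 to 0.19 over 19 alternatives), and that of GLL22 in PP2-A5oe without Col-0 replicate 1 (0.49, with adjusted p from 0.00444 to 0.0551 over 19 alternatives). JAL23, the 1 tested locus of 10 in the jacalin list, has 3 annotated transcripts and had 62.9 ± 8.17 CPM in Col-0, against 56.1 ± 5.10 CPM in the overexpressor and 74.9 ± 2.55 CPM in the mutant. It was higher in pp2-a5 than in Col-0 (0.26 ± 0.09, adjusted p = 0.0352), a call lost in 8 of 19 alternatives (adjusted p from 0.00165 to 0.275), and was lower in PP2-A5oe than in pp2-a5 (-0.42 ± 0.09, adjusted p = 0.000921). Without Col-0 replicate 1 the difference of JAL23 between pp2-a5 and Col-0 was 0.16.

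Genes that make or handle the glucosides cut by these enzymes were also examined. Of 7 genes for methoxylated indole glucosinolates, substrates of PYK10, 5 were tested. In PP2-A5oe 4 were higher and 0 lower (median log2 fold change 1.42), and in pp2-a5 3 were higher and 0 lower (median 1.29). Over all tested loci, 14.5% were higher and 10.5% lower in the overexpressor, and 12.3% were higher and 8.47% lower in the mutant. CYP81F2, which hydroxylates the indole ring, had 7.12 ± 0.186 CPM in Col-0 and rose to 22.9 ± 3.03 CPM in the overexpressor and 24.5 ± 3.64 CPM in the mutant. The methyltransferase gene IGMT1 went from 7.41 ± 0.983 to 19.97 ± 2.96 and 18.1 ± 1.46 CPM, and IGMT2, with 2 annotated transcripts, from 1.38 ± 0.215 to 8.77 ± 1.05 and 8.51 ± 1.75 CPM. The Col-0 libraries had 1.13 to 1.51 CPM of IGMT2, under the 1.65 CPM of the filter. IGMT2 was thus tested only because it was high in the lines, and its calls and its place in these counts support nothing. Between the lines, CYP81F3 (0.51 ± 0.13, adjusted p = 0.00807) and IGMT5 (0.81 ± 0.24, adjusted p = 0.0166), which overlaps a gene on the opposite strand, were higher in PP2-A5oe. These were 2 of the 5 tested, with 0 lower, where 7.21% of all tested loci were higher and 5.45% lower. The IGMT5 call was lost with DESeq2 and without PP2-A5oe replicate 1, PP2-A5oe replicate 2 or pp2-a5 replicate 3 (adjusted p from 0.0062 to 0.152 over 18 alternatives). That of CYP81F3 was lost without pp2-a5 replicate 1 (0.00491 to 0.0845 over 19 alternatives), and its call against Col-0, 1 of the 4 above, was lost in 5 of 19 alternatives (adjusted p from 0.0158 to 0.085).

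For scopolin, a coumarin glucoside cut by BGLU21, BGLU22 and PYK10, 3 of 6 genes were tested. F6'H1, which makes the scopoletin precursor and overlaps a gene on the opposite strand, was higher in pp2-a5, at 5.26 ± 0.473 CPM against 2.85 ± 0.196 CPM in Col-0 (log2 fold change 0.88 ± 0.24, adjusted p = 0.00700), and stood at 3.06 ± 0.424 CPM in the overexpressor. With DESeq2 the call of F6'H1 in pp2-a5 was lost (adjusted p = 0.0562, the highest of 18 alternatives, with 0.00703 the lowest). In PP2-A5oe against Col-0 no gene of this list was called by edgeR, and 0 had an unadjusted p under 0.05. Of all 13975 tested loci, 4956 had such an unadjusted p in that comparison. For the glucose ester of abscisic acid, from which BGLU18 releases the hormone, 2 of 3 genes were tested. UGT71B6, a glucosyltransferase gene for abscisic acid, overlaps a gene on the opposite strand as well. It had 3.47 ± 1.252 CPM in Col-0 and rose to 5.63 ± 0.694 CPM in the overexpressor (adjusted p = 0.0431) and to 7.62 ± 1.48 CPM in the mutant (adjusted p = 0.000487). The call in the overexpressor was lost in 9 of 18 alternatives (adjusted p from 0.0151 to 0.252), among them DESeq2 and upper-quartile scaling, and without Col-0 replicate 2 its log2 fold change went from 0.69 to 0.44.

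By the shape of their profile over the 9 libraries, the genes most like PYK10 were EXO70B1, AT5G61820 and AT5G50100, with root mean square differences of 0.052, 0.053 and 0.060 in centred log2 CPM. EXO70B1, an exocyst subunit gene, averaged 59.3 CPM in Col-0, against 80.1 CPM in the overexpressor and 62.6 CPM in the mutant. Among 13969 loci compared, NAI1 ranked at 4722 and BGLU22 at 12422 in likeness to PYK10. Nearest to NAI1 were NAS4, a nicotianamine synthase gene (0.11), KIN10 (0.12) and AT1G20990 (0.13). NAS4 averaged 83.9 CPM in Col-0, against 92.6 CPM in the overexpressor and 58.2 CPM in the mutant. KIN10 has 3 annotated transcripts and overlaps another gene. PYK10 ranked at 331 in likeness to NAI1.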

How the data were processed

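Per the submitters' processing notes the authors worked on TAIR10, and their deposited table gives raw counts for each locus. Aligner, counter, gene models and use of strand are not given in these sources. Total counts ran from 5408847 to 6196722 per library. The 22449 entries were summed to 22155 loci. Loci were filtered with filterByExpr (minimum count 10, minimum total 15), which left 13975 loci, with TMM scaling. One quasi-likelihood model covered the 9 libraries (edgeR 4.0.16 in R 4.3.3, 6 residual degrees of freedom), and a call needed an adjusted p (Benjamini-Hochberg, over all tested loci) under 0.05. On simulated data for PP2-A5oe against Col-0 (13975 loci, 50 changed per fold), recovery was 20% at 1.25-fold, 61.2% at 1.5-fold, 90% at 2-fold and 100% at 4-fold, with 13 unchanged loci called.

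CPM use TMM-scaled totals, and RPKM divide these by the exonic length in TAIR10.1, which also gave names, positions, transcripts and promoters of 250 bases. The named genes are all members, TSA1, MEB2 and JAL35, and up to 3 called genes with the smallest adjusted p per list, or the 2 most abundant ones if the list had no call. RCA, CA1, CASP4, CASP5, COBL9, ESB1, EXPA7, FRO2, BGLU8, BGLU19 and BGLU20 were named after their values were seen. So were the untested or uncalled loci whose values are given for level. Likeness used log2(CPM + 0.5) over loci with a mean of at least 1 CPM, and BGLU18 had too few counts for it. Members and lists were chosen with earlier results of these data known. How replicate plants were grown is not in the labels, so p-values measure the spread between these samples alone. Intervals and floors cover counting error only. Alternatives used DESeq2 1.42.0 and limma 3.58.1 (voom), other scalings and filters, fits of only the groups compared, separate entries, a replicate block, other call rules and left-out libraries.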

Additional observations from a re-analysis of the deposited data

Results flagged for a closer look

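For each of the 3 tested members the change in PP2-A5oe differed from that in pp2-a5, by the direct test of 1 line against the other. The difference in log2 fold change was 0.39 for PYK10, 1.24 for BGLU22 and 0.73 for NAI1, higher in PP2-A5oe in each case. The 3 PP2-A5oe libraries were above the 3 pp2-a5 libraries for each of these genes, which restates the direct test on the same values. The share of all tested loci with such a gap was not computed, and 7.21% were called higher in PP2-A5oe between the lines. BGLU22 was tested because it was high in PP2-A5oe, so its difference is a description only. Against Col-0, PYK10 and BGLU22 were called in PP2-A5oe, and no difference in pp2-a5 and neither difference of NAI1 was called.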

How the results depend on the processing

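PYK10 and BGLU22 stayed called in PP2-A5oe, against Col-0 and against pp2-a5, under every alternative that tested them, except that PYK10 lay under a 2-fold threshold. Against Col-0 their log2 fold changes ran from 0.32 to 0.48 and from 1.64 to 2.02. BGLU22 was tested because it was high in PP2-A5oe, and the alternatives reuse the same libraries, so its calls are a description only. NAI1 between the lines lost its call with DESeq2 (0.73) and at an adjusted p under 0.01 (0.73). Its call was also lost in 3 of 9 fits that left out a library (0.54, 0.66 and 0.72). All 9 of these fits gave 0.54 to 0.88. PYK10 in pp2-a5 against Col-0, not called in any fit, changed sign among fits that left out a library (-0.077 to 0.095) and without Col-0 replicate 3 and PP2-A5oe replicate 2 together (0.095). With at least 10 CPM in 3 libraries, 1 member was tested and called in PP2-A5oe against Col-0 and 1 between the lines, and a 2-fold threshold also left 1 and 1. A 2-fold threshold left 585, 471 and 395 called loci in the overexpressor, in the mutant and between the lines, and an adjusted p under 0.01 left 1887 in the mutant and 1174 between the lines. Upper-quartile scaling gave 1769 higher and 2069 lower loci in the overexpressor, and 1536 and 1553 in the mutant.

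Of 59 called results of single genes, members included, 16 lost the call under at least 1 alternative other than the stricter p threshold and 43 under none. Lost calls among these 59 are given beside the differences that the text prints. BGLU8 and FRO2 were not among the 59, so how their calls depend on the processing is not given. None of the 59 changed sign. Signs of uncalled genes near 0 changed among fits that left out a library. The ranges were -0.051 to 0.16 for BGLU25 and -0.020 to 0.027 for RBCS2B in PP2-A5oe against Col-0, and -0.19 to 0.03 for BGLU25, -0.21 to 0.03 for CYP81F3 and -0.23 to 0.42 for RCI3 in pp2-a5 against Col-0. Between the lines they were -0.20 to 0.015 for CYP81F2, -0.10 to 0.20 for IGMT2, -0.058 to 0.12 for AT1G28680 and -0.25 to 0.014 for ABCG37. Without the pair of libraries together, F6'H1 (-0.0044) and RBCS2B (-0.0072) in PP2-A5oe and BGLU25 (0.031) in pp2-a5 changed sign, as did RBCS2B with no filter (-0.013) and with upper-quartile scaling (-0.046). The cause was not tested. Replicate numbers did not pair the libraries: 0 of 9 same-numbered pairs had correlated deviations over 0.1 (-0.18 to 0.062). With the replicate block the log2 fold changes in PP2-A5oe against Col-0 were 0.39 for PYK10 and 1.82 for BGLU22, and all calls of members held. The calls of UGT71B6 and AT1G52000 in PP2-A5oe and of JAL23 in pp2-a5 were not made with it (adjusted p = 0.0576, 0.0634 and 0.0689), nor were those of RBCS2B in pp2-a5 and between the lines (0.0503 and 0.0711).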

Other observations

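BGLU20 (ATA27), a relative of PYK10 known from anthers and with 1 annotated transcript, fell below the filter on low counts and was chosen after its values were seen. It had 6, 6 and 11 counts in PP2-A5oe replicates 1 to 3 and 0 counts in all 6 libraries of Col-0 and pp2-a5. Its 23 counts in PP2-A5oe were set against a floor of 3 counts over a group. With library totals accounted for, the ratio was 7.65 to Col-0 and 7.92 to pp2-a5. These ratios leave out the counting error of the 23 counts, whose exact Poisson interval runs from 14.6 to 34.5. Because BGLU20 was chosen after its values were seen, the ratios are a description only.

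A wider set of 34 loci annotated as mannose-binding lectins, the fold of the jacalins, was added after the data were seen. Only 2 of these loci were tested. AT1G52000, with 2 annotated transcripts, had 123 ± 6.03 CPM in Col-0, against 108 ± 3.81 CPM in the overexpressor and 87.5 ± 5.98 CPM in the mutant (SD, n = 3), and was lower in both lines, at -0.20 ± 0.07 and -0.50 ± 0.07 on the log2 scale (edgeR, adjusted p = 0.0372 and 2.26e-06). Its call in PP2-A5oe was lost in 8 of 19 alternatives (adjusted p from 0.00884 to 0.175). AT1G73040, which overlaps a gene on the opposite strand, was lower in PP2-A5oe than in pp2-a5, at -0.85 ± 0.25 (adjusted p = 0.0191), a call lost in 5 of 18 alternatives, DESeq2 among them (adjusted p from 0.0114 to 0.109).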
